A study of Homo sapiens with 64 samples.

Results

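The 31 genes described here are transcriptional targets of p53 taken from textbook knowledge and matched by symbol to the 54127 genes counted in every library. All 31 matched a row. By role, 4 of them were classed as feedback on p53 (MDM2, PPM1D, CCNG1 and FBXW7), 8 as cell cycle or growth arrest and 9 as cell death. Another 4 were classed as DNA repair and nucleotide supply and 4 as redox balance and metabolism, and 2 (RPS27L and KITLG) fell in no other class. These classes are a broad listing for counting, and CYFIP2, a cytoplasmic partner of the FMR1 protein, was counted under arrest. Their levels were compared between 6 colorectal cancer cell lines, between label-retaining and cycling cells of each line, and between unsorted control cultures.

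p53 is a transcription factor that is held low in unstressed cells because MDM2, one of its own targets, marks it for degradation. When DNA damage, nutrient shortage or oncogene activity releases it from MDM2, it binds paired half-sites near its target genes and raises genes that stop the cell cycle, repair DNA, limit oxidative stress or kill the cell.

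The lines were HT55 and SW948 (colon cancer subtype CCS1), RKO and SW48 (CCS2), and DLD1 and HCT15 (CCS3), all established human colorectal carcinoma lines grown as nonadherent spheroids in serum-free medium with bFGF and EGF. Cells were stained with CFSE, a dye diluted at each division, and sorted on day 6 into label-retaining cells (LRCs, the CFSE-high fraction, which had divided least) and non-LRCs (the CFSE-bulk fraction), with 4 libraries of each from each line, or 48 libraries. A further 16 unsorted libraries carry the label DLD1 and were either stained with CFSE or given DMSO alone (unlabeled), 4 at day 1 and 4 at the time labeled day 5 for each (day 6 in the methods). In the literature RKO and SW48 are described as p53 wild-type and the other four lines as not. Neither the labels nor the counts test this, and because these same lines make up CCS2, p53 status and subtype cannot be told apart. The study's methods describe its experiments as biological replicates, but the labels do not say whether the 4 libraries of a group came from separate cultures, and the p-values measure only the spread between these libraries. In such bulk libraries fewer cells of one kind and less RNA per cell cannot be told apart.

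Matches to the p53 consensus, a pair of 10-base half-sites with at most 1 base between them, are shown first because they are the sequence through which p53 is known to act on its targets. The letters come from the GRCh37 (hg19) reference, searched on both strands from 2500 bases before to 2500 bases after the annotated start of each protein-coding gene. The C and the G that the consensus fixes in each half-site had to match, so mismatches were allowed at the other bases only. Of the 31 members, 15 (48.4%) held a match with at most 2 mismatches, against 1416 of all 19010 protein-coding genes (7.45%). At most 1 mismatch was met by 7 members (22.6%) and 206 genes in all (1.08%), and a perfect match by 3 members (9.68%) and 22 genes in all (0.116%). Shown are the best matches of 6 of the 7 members with at most 1 mismatch and of the other members with a match that rose in SW48 LRCs. Each is written 5′ to 3′ on its own strand, with bases that fit the consensus in capitals and mismatched or spacer bases in lower case.
DDB2: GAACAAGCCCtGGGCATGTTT
PLK2: AAACATGCCTGGACTTGCCC
ZMAT3: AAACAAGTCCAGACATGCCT
CCNG1: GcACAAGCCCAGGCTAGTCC
GADD45A: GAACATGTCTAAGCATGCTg
GDF15: AGACcTGCCCGGACATGTCC
ACER2: GAACcTGCCgGGACAAGTCT
BTG2: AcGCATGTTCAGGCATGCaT
FAS: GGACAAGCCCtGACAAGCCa
MDM2: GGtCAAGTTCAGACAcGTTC
SPATA18: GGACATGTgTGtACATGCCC

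The 3 perfect matches lie in a noncoding part of an exon of DDB2 (chr11:47236530-47236550, plus strand, with 1 spacer base), upstream of PLK2 (chr5:57758101-57758120, minus strand) and in an intron of ZMAT3 (chr3:178787976-178787995, minus strand). The matches of CCNG1 (chr5:162864932-162864951), GADD45A (chr1:68152458-68152477), ACER2 (chr9:19409520-19409539), MDM2 (chr12:69202703-69202722) and SPATA18 (chr4:52918123-52918142) are intronic and on the plus strand. Those of GDF15 (chr19:18484757-18484776) and BTG2 (chr1:203272770-203272789) lie upstream of the gene on the plus strand, and that of FAS (chr10:90751066-90751085, plus strand) is in a noncoding part of an exon. RRM2B, the remaining member with at most 1 mismatch, and TNFRSF10B held matches that are not shown, and DDB2 held a second match with 1 mismatch that overlaps the one shown (chr11:47236520-47236539). AEN and BAX held matches with 2 mismatches, as did CDKN1A, which is no member. A match is a run of letters and no measurement of binding.

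Libraries held between 12237225 and 20913455 reads on genes (median 15063858). The cells carried epithelial markers least in RKO, where the summed level of EPCAM, KRT8, KRT18, KRT19 and CDH1 was 196.5 to 305.6 CPM (counts scaled to library depth) against 2644 or more in every other library, and where KRT19 and CDH1 were as low as 0.392 and 0.626 CPM. CD3E had no counts, COL3A1 at most 0.545 and DCN at most 0.221 CPM, while COL1A1 reached 13.1 CPM in SW948, PTPRC was at 7.47 to 22.1 CPM in every SW48 library, and CD68 reached 1570 CPM in RKO. All 16 controls labeled DLD1 correlated best with the sorted HCT15 libraries (Pearson r across genes 0.932 to 0.990) rather than with sorted DLD1 (0.872 to 0.930), and the 13 genes above 10 CPM in sorted DLD1 and under 0.2 CPM in sorted HCT15, MUC5AC and LGR5 among them, reached at most 1.43 CPM in any control. Whether the labels of the controls or those of the sorted DLD1 and HCT15 libraries are exchanged cannot be told from these counts. The sorted libraries are named as labeled, the controls are called the controls labeled DLD1, and none of their values is set against sorted DLD1. The unlabeled day 1 library of replicate 4 correlated at 0.970 to 0.993 with the unlabeled day 5 libraries and at 0.946 to 0.960 with the other day 1 libraries. Replicates 1 and 2 stood apart from replicates 3 and 4 in sorted DLD1, in sorted HCT15 and in the CFSE-stained controls at day 1, and replicate 2 stood apart in HT55 and SW48, as did replicate 4 of the SW948 LRCs.

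The first question was whether the members stood higher in the lines described as p53 wild-type. Levels are CPM scaled by the trimmed mean of M values across all 64 libraries, and they are compared between samples only, never between genes. With the line as the unit, RKO and SW48 against the other four, no member passed edgeR's quasi-likelihood test at a Benjamini-Hochberg adjusted p under 0.05, either in non-LRCs (0.017% of 17603 genes tested passed) or in LRCs (0.0221% of 18083). Of the 31 members, 3 reached an unadjusted p under 0.05 in non-LRCs, where 2212 of 17603 genes did. In LRCs 11 members did, where 2257 of 18083 genes did. DESeq2 called 2 in non-LRCs (GADD45A and FDXR) and 5 in LRCs (those and ZMAT3, BAX and DDB2), where it called 1345 of 17216 and 1360 of 17681 genes. limma on line means called 0 members in both, with 52 of 17603 and 46 of 18083 genes. Counting each library as a unit gave 29 and 27 members, where 12015 of 15779 and 12201 of 16029 genes passed. The median log2 difference over the members was 0.32 in non-LRCs and 0.95 in LRCs, against -0.02 and -0.03 over all genes tested.

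FDXR, the ferredoxin reductase of mitochondria, had one of the smallest p-values in both populations. In non-LRCs it ran from 24.6 to 60.4 CPM (median 40.6) in the 8 libraries of RKO and SW48 and from 11.0 to 21.6 CPM (median 17.7) in the 16 others. In LRCs it ran from 42.3 to 96.1 CPM (median 60.9) and from 12.1 to 18.8 CPM (median 16.2). The groups did not overlap in either population, and the line means ran from SW48 to RKO and then to the other four, whose libraries overlapped one another. The log2 difference was 1.33 ± 0.37 (SE, adjusted p = 0.296, edgeR) in non-LRCs and 2.03 ± 0.30 (adjusted p = 0.154, edgeR) in LRCs.

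GADD45A, a growth-arrest gene, ran from 45.7 to 138 CPM (median 79.8) in non-LRCs of RKO and SW48 and from 18.4 to 56.6 CPM (median 26.6) in those of the other lines, so the groups overlapped through the lowest SW48 library. Its log2 difference was 1.52 ± 0.36 (adjusted p = 0.26, edgeR). ZMAT3, an RNA-binding zinc finger protein with growth-suppressing activity, ran in LRCs from 67.5 to 175 CPM (median 127.5) in RKO and SW48 and from 10.2 to 39.2 CPM (median 29.6) elsewhere, without overlap. Its log2 difference in LRCs was 2.25 ± 0.48 (adjusted p = 0.234, edgeR).

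In non-LRCs, 2 of the 31 members (CYFIP2 and FDXR) had all 8 libraries of RKO and SW48 above all 16 others, against 3.78% of genes. In LRCs there were 9 (GADD45A, CYFIP2, ZMAT3, TP53INP1, BAX, PHLDA3, DDB2, POLH and FDXR), against 3.94% of genes. No member lay wholly below in either population. The order of lines was not the same for all members: PLK2, a polo-like kinase, was highest in SW48 (172 ± 38.4 CPM in non-LRCs, SD, n = 4) and lowest in RKO (0.144 ± 0.0674 CPM), and BTG2, an antiproliferative gene, was highest in HT55 (216 ± 38.0 CPM) and lowest in RKO (25.6 ± 2.07 CPM).

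**Figure D1:**
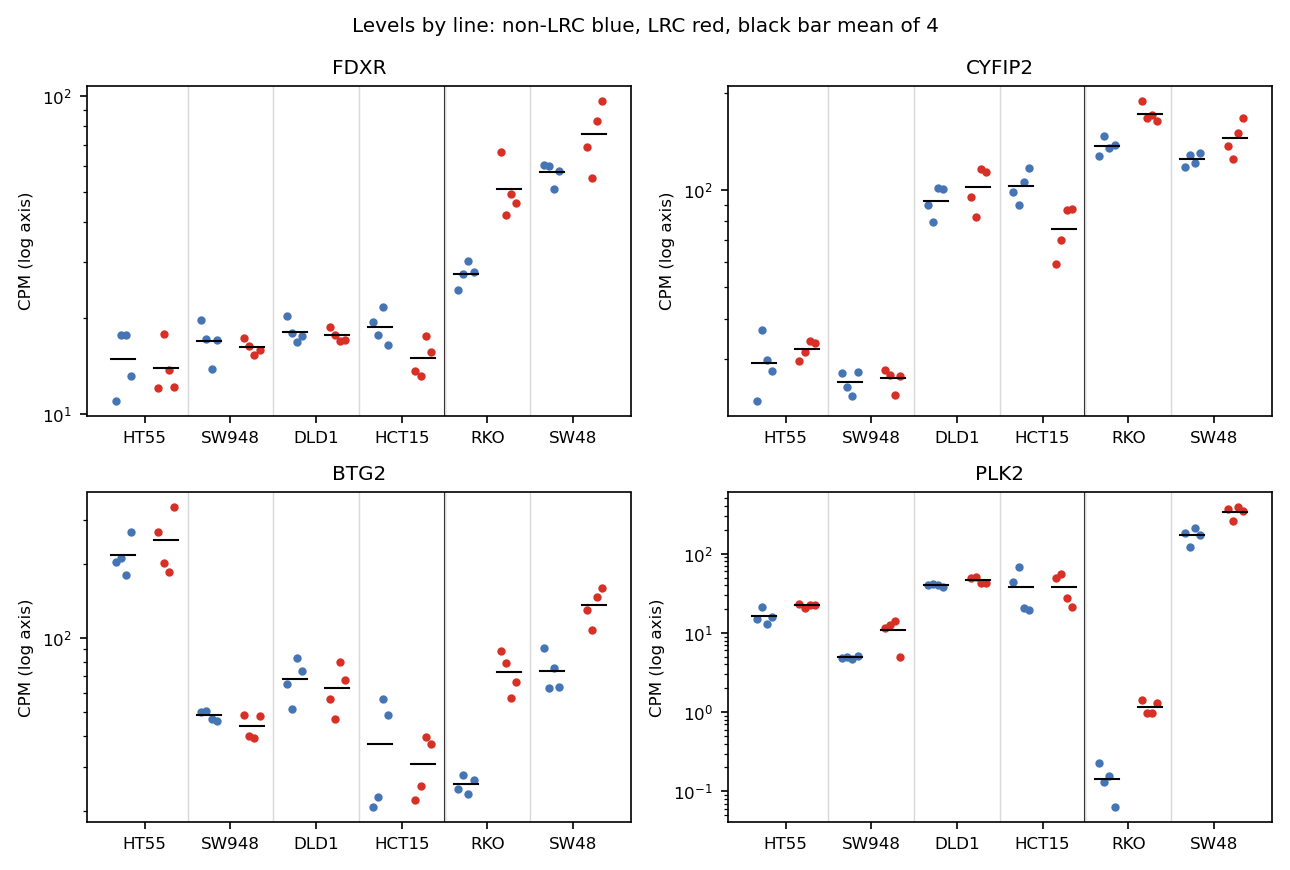
Level of FDXR, CYFIP2, BTG2 and PLK2 in each of the 48 sorted libraries, in CPM on a log axis, by line and population (LRC or non-LRC), 4 points for each. FDXR and CYFIP2 are above all other lines in every RKO and SW48 library, while BTG2 and PLK2 have their lowest means in RKO non-LRCs (25.6 and 0.144 CPM).

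Among the 6 lines, LRCs and non-LRCs of RKO differed in the most members. Of the 31 members, 28 rose in RKO LRCs and none fell, where 41.5% of the 12731 genes tested changed and 20.4% rose. The median log2 fold change over the members was 0.78, against 0.01 over all genes tested. By role, 3 of 4 feedback genes, 7 of 8 arrest genes, 8 of 9 death genes and all of the 4 repair genes, 4 redox genes and 2 remaining genes rose. FBXW7 (0.15 ± 0.10), GADD45A (0.00 ± 0.07) and TRIAP1 (0.05 ± 0.10, log2 fold change ± SE) did not pass the test.

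TP53INP1, a stress-induced cofactor of p53 and of autophagy, was at 27.7, 25.3, 20.6 and 26.5 CPM in the 4 RKO non-LRC libraries and at 132, 116, 103 and 115 CPM in the LRC libraries. The lowest LRC library stood far above the highest non-LRC library. The log2 fold change was 2.22 ± 0.10 (SE, edgeR adjusted p = 4.45e-10), or from 25.0 ± 3.11 to 117 ± 12.0 CPM (SD, n = 4 each). RRM2B, the p53-inducible subunit of ribonucleotide reductase that supplies nucleotides for repair, was at 92.0, 97.5, 77.4 and 89.2 CPM in non-LRCs and at 282, 256, 242 and 272 CPM in LRCs. It too showed no overlap, with a log2 fold change of 1.56 ± 0.08 (edgeR adjusted p = 1.09e-09).

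ZMAT3 was at 60.4, 65.8, 50.8 and 68.2 CPM in RKO non-LRCs and at 174, 152, 149 and 175 CPM in LRCs, again apart, with a log2 fold change of 1.41 ± 0.09 (edgeR adjusted p = 2.16e-08). GDF15, a secreted stress cytokine, was near the bottom of its range in RKO non-LRCs, at 1.20, 0.712, 1.18 and 0.939 CPM (11 to 16 reads a library), and reached 26.3, 19.3, 12.2 and 14.1 CPM (149 to 338 reads) in LRCs. Every LRC library was above every non-LRC library, and the log2 fold change of 4.16 ± 0.27 (edgeR adjusted p = 3.1e-08) was the largest of any member in any line.

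Among the other members that rose in RKO LRCs, the largest log2 fold changes were those of PLK2 (3.001 ± 0.42, 95% interval 2.17 to 3.83, from 1 to 3 reads a library to 12 to 25), SPATA18, a gene of mitochondrial quality control (2.27 ± 0.27), KITLG, the ligand of the KIT receptor (1.89 ± 0.18), and BTG2 (1.51 ± 0.12). ACER2, an alkaline ceramidase, rose by 1.22 ± 0.15, the death receptor gene FAS by 1.16 ± 0.10, the nucleotide excision repair gene DDB2 by 1.14 ± 0.11 and MDM2 by 0.997 ± 0.08 on the log2 scale. Smaller rises included those of the pro-apoptotic genes BBC3 (0.75 ± 0.10) and BAX (0.24 ± 0.08) and of TIGAR, a regulator of sugar metabolism (0.78 ± 0.08). In 26 of the 31 members all 4 RKO LRC libraries were above all 4 non-LRC libraries, against 17.3% of genes. PLK2 is counted among these and among the members that rose. With 1 to 3 reads in each non-LRC library, it had enough reads to be tested through its LRC libraries alone. Its call is therefore not independent of the minimum read count for testing.

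Other markers moved in RKO as well. Of 6 proliferation markers 5 fell, and their summed level was 883.5 to 977.6 CPM in non-LRCs and 411.6 to 826.0 CPM in LRCs. The summed level of markers of other cell types, nearly all of it CD68, was 992 to 1146 CPM in non-LRCs and 1242 to 1571 CPM in LRCs, and PTPRC had no counts in any RKO library. Their part in the members' rise was not tested.

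**Figure D2:**
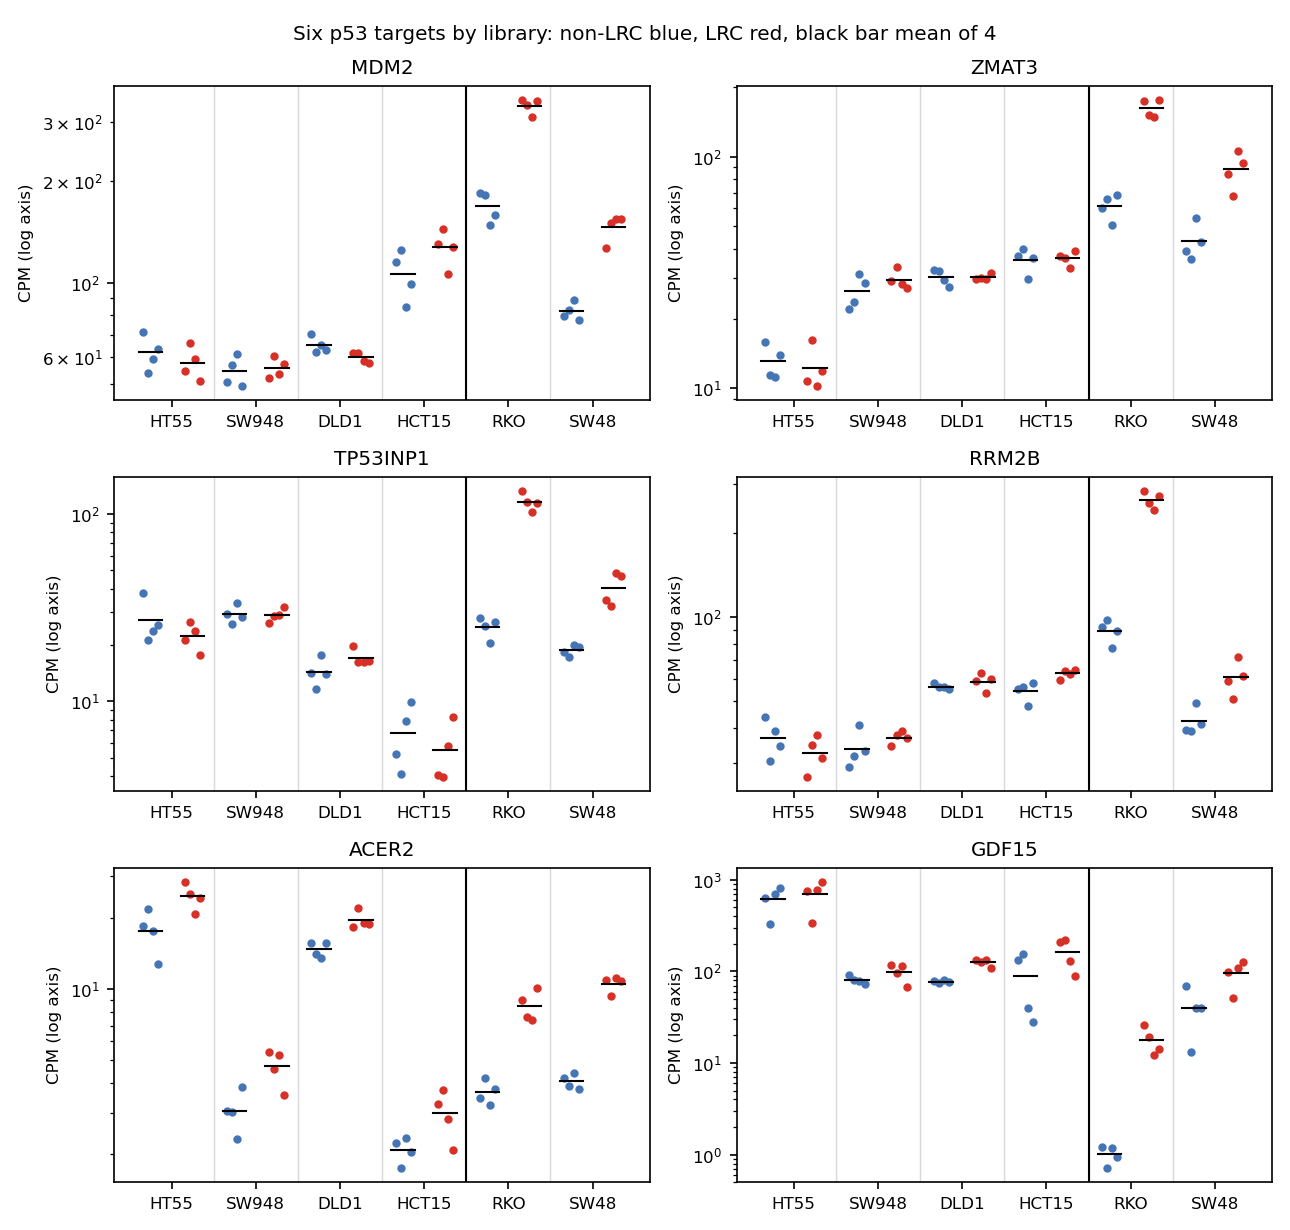
Level of MDM2, ZMAT3, TP53INP1, RRM2B, ACER2 and GDF15 in each sorted library, in CPM on a log axis, by line and population, 4 points for each. In RKO the LRC and non-LRC points of all 6 genes are apart, as for TP53INP1 (103 to 132 against 20.6 to 27.7 CPM), and in HT55 they overlap for MDM2, ZMAT3 and TP53INP1.

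In SW48 LRCs 9 of the 31 members rose and none fell: MDM2, BTG2, PLK2, ZMAT3, TP53INP1, FAS, ACER2, DDB2 and SPATA18. Of the 13196 genes tested in this line 0.796% changed and 0.72% rose. By role, 1 of 4 feedback genes, 4 of 8 arrest genes, 2 of 9 death genes, 1 of 4 repair genes and 1 of 4 redox genes rose. The log2 fold change was above 0 in 29 of the 31 members, with a median of 0.43 against -0.01 over all genes. Same-numbered SW48 libraries deviated together (r = 0.185 to 0.609), and with the replicate number as a block 22 members rose, against 9.69% of genes changed.

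ACER2 was at 4.19, 3.90, 4.39 and 3.76 CPM in SW48 non-LRCs and at 10.9, 9.30, 11.1 and 10.8 CPM in LRCs, with a log2 fold change of 1.38 ± 0.13 (edgeR adjusted p = 0.00328). MDM2 was at 79.5, 82.8, 88.8 and 77.4 CPM in non-LRCs and at 127, 151, 154 and 154 CPM in LRCs, with a log2 fold change of 0.84 ± 0.08 (edgeR adjusted p = 0.00393). All LRC libraries were above all non-LRC libraries for both genes. TP53INP1 was at 18.4, 17.3, 20.1 and 19.5 CPM in non-LRCs and at 34.7, 32.4, 48.4 and 46.6 CPM in LRCs, a log2 fold change of 1.11 ± 0.14 (edgeR adjusted p = 0.00824). FAS was at 14.1, 20.3, 16.7 and 14.7 CPM in non-LRCs and at 28.2, 29.8, 37.9 and 32.1 CPM in LRCs, a log2 fold change of 0.97 ± 0.14 (edgeR adjusted p = 0.0133). Neither gene showed overlap between the populations.

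All 4 SW48 LRC libraries were above all 4 non-LRC libraries in 15 of the 31 members, against 4.45% of genes. GDF15 had a log2 fold change of 1.26 ± 0.41 that did not pass the test (edgeR adjusted p = 0.223; 1.37 ± 0.18, adjusted p = 0.00161 with the block), since its non-LRC libraries spread from 13.1 to 68.5 CPM, the lowest being replicate 2. The count of members called by edgeR fell to 1 without replicate 1, where 6 of 12904 genes passed, and to 0 without replicate 3 or replicate 4, where no gene did. It rose to 17 without replicate 2, where 497 of 12950 genes passed. All 6 proliferation markers had log2 fold changes below 0 in SW48 (-0.81 to -0.46, median -0.59). None of them passed the test, and 2 had an unadjusted p under 0.05. Their sum was 386.2 to 1317 CPM in non-LRCs and 320.3 to 816.4 CPM in LRCs, and their part in the members' rise was not tested.

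The next comparison asked whether the LRC effect itself differed between RKO and SW48 and the other four lines. In the interaction test 20 of the 31 members had a larger effect in RKO and SW48 and none a smaller one, where 10.7% of the 16603 genes tested differed and 6.15% had a larger effect. The median difference in log2 fold change was 0.59, against 0.02 over all genes. By role these were 2 of 4 feedback genes, 6 of 8 arrest genes, 3 of 9 death genes, 4 of 4 repair genes, 3 of 4 redox genes and both remaining genes. An effect that differed among the 6 lines in any way was called for 21 members, against 14.3% of genes. With each line's effect counted once, so that the lines are the units, 1 member (ZMAT3) passed, where 4 of 16603 genes did.

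For RRM2B the difference in log2 fold change was 0.9997 ± 0.09 (edgeR adjusted p = 5.02e-11). Over RKO and SW48 its level ran from 39.1 to 97.5 CPM (median 63.3) in non-LRCs and from 50.8 to 282 CPM (median 156.7) in LRCs, and over the other lines from 29.1 to 58.2 CPM (median 46.0) and from 26.7 to 64.4 CPM (median 46.2). For TP53INP1 the difference was 1.76 ± 0.16 (edgeR adjusted p = 5.72e-11), with LRC libraries of RKO and SW48 at 32.4 to 132 CPM (median 75.7) and those of the other lines at 3.94 to 32.0 CPM (median 18.7). These LRC libraries did not overlap, whereas the non-LRC libraries of TP53INP1 did (17.3 to 27.7 CPM, median 20.3, against 4.11 to 37.8 CPM, median 19.5).

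For ZMAT3 the difference was 1.21 ± 0.11 and for MDM2 0.91 ± 0.08 (edgeR adjusted p = 1.48e-10 for each). MDM2 ran from 77.4 to 185 CPM (median 118.6) in non-LRCs and from 127 to 348 CPM (median 233) in LRCs of RKO and SW48, and from 49.2 to 125 CPM (median 63.2) and from 50.9 to 144 CPM (median 59.9) in the other lines. In 19 of the 31 members the effects of RKO and SW48 were both above those of all of the other four lines, against 11.4% of genes. KITLG and PLK2 passed the interaction test without this: KITLG rose in RKO (1.89) and had a log2 fold change of -0.22 ± 0.22 in SW48, and PLK2 had 0.98 ± 0.17 in SW48 and 1.12 ± 0.26 in SW948. SPATA18 could not be compared with any precision (0.75 ± 2.38), since HT55 held 1 read of it in 8 libraries and DLD1 at most 4 reads in any library. It is counted among the 19 all the same, with differences in mean log2 CPM of 0.792 in SW48 and 0.783 in DLD1.

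Of 6 proliferation markers, 3 had a smaller (more negative) effect in RKO and SW48 in the same test. Their part in the members' difference was not tested.

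**Figure D3:**
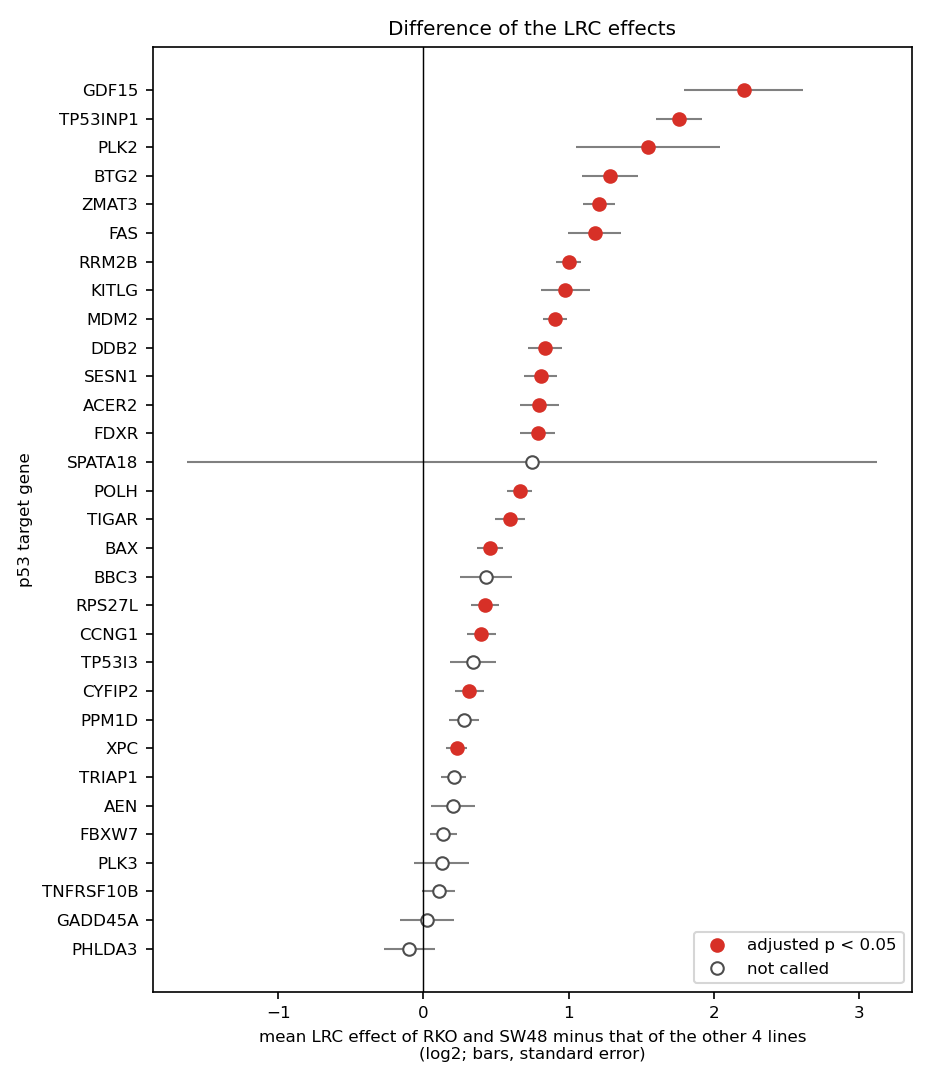
Difference in the LRC effect (log2 fold change of LRC against non-LRC) between RKO and SW48 and the other 4 lines for each member, with SE bars and filled points for the members called. The 20 filled points lie between 0.23 (XPC) and 2.21 (GDF15), and SPATA18 has the widest bar.

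In the other four lines few members passed the main test, which used no replicate block. In DLD1 3 members rose in LRCs (GDF15, ACER2 and PLK2) and KITLG fell, 4 of 29 tested, where 14.6% of 13592 genes changed. PHLDA3 and SPATA18 had too few reads in this line to be tested. With the replicate number as a block 10 members passed, 7 higher and 3 lower (CCNG1, FAS and KITLG), against 33.8% of genes.

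GDF15 was at 78.4, 74.5, 81.6 and 75.8 CPM in DLD1 non-LRCs and at 134, 126, 132 and 109.7 CPM in LRCs, a log2 fold change of 0.72 ± 0.06 (edgeR adjusted p = 0.000319). ACER2 was at 15.7, 14.0, 13.5 and 15.7 CPM in non-LRCs and at 18.3, 21.9, 19.0 and 18.8 CPM in LRCs, a log2 fold change of 0.43 ± 0.09 (edgeR adjusted p = 0.00996). The populations did not overlap for either gene. PLK2 was at 39.7, 41.3, 40.2 and 37.7 CPM in non-LRCs and at 49.04, 50.9, 43.0 and 42.8 CPM in LRCs (0.25 ± 0.07, edgeR adjusted p = 0.0311), and KITLG at 28.2, 25.2, 33.8 and 27.5 against 23.9, 21.9, 23.2 and 22.1 CPM (-0.31 ± 0.09, edgeR adjusted p = 0.042). All LRC libraries were above the non-LRC libraries for PLK2 and below them for KITLG. The number of members called in DLD1 fell to 2 without replicate 1 (581 of 13358 genes), to 1 without replicate 3 (643 of 13335) and to 2 without replicate 4 (756 of 13418). It was 7 within replicates 1 and 2 (1537 of 12978 genes) and 8 within replicates 3 and 4 (3000 of 12857). As in RKO, 5 of 6 proliferation markers fell in DLD1 LRCs (971.9 to 1092 CPM in sum in non-LRCs, 580.7 to 857.0 in LRCs), and their part was not tested.

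In HCT15 no member passed edgeR's test or DESeq2, where 0.977% of 14017 genes changed by edgeR and 531 of 14017 by DESeq2. An unadjusted p under 0.05 was reached by 8 members and by 2415 of the 14017 genes. With the replicate number as a block 12 members passed, 8 higher (MDM2, GADD45A, PLK3, GDF15, FAS, TNFRSF10B, AEN and RRM2B) and 4 lower (CCNG1, CYFIP2, TP53I3 and FDXR), against 21.3% of genes. Within replicates 1 and 2 alone 6 members passed, where 1305 of 13161 genes did, and within replicates 3 and 4 alone 8, where 789 of 13337 did. CYFIP2 was at 98.7, 89.7, 105.5 and 117 CPM in HCT15 non-LRCs and at 58.9, 70.2, 86.5 and 87.4 CPM in LRCs (log2 fold change -0.42 ± 0.13, edgeR adjusted p = 0.159; 0.000422 with the block). GADD45A was at 25.7, 29.4, 27.6 and 22.1 CPM in non-LRCs and at 43.2, 43.1, 32.7 and 26.6 CPM in LRCs (0.49 ± 0.16, edgeR adjusted p = 0.159; 0.00111 with the block). CYFIP2 was below every non-LRC value in all 4 LRC libraries, and GADD45A overlapped between the populations.

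In HT55 0 of 30 members passed edgeR's test and 0 passed DESeq2. Of all genes, 0% of 13391 passed by edgeR and 37 of 13385 by DESeq2. The unadjusted p was under 0.05 for 3 members and for 1005 of the 13391 genes. Without replicate 2, 4 members passed, where 808 of 13182 genes did. ACER2 was at 18.4, 21.9, 17.6 and 12.8 CPM in HT55 non-LRCs and at 28.3, 25.2, 20.8 and 24.3 CPM in LRCs (0.49 ± 0.16, edgeR adjusted p = 0.572), and PLK2 at 15.1, 21.4, 12.8 and 15.9 against 22.9, 20.9, 22.3 and 22.7 CPM (0.45 ± 0.15, edgeR adjusted p = 0.577). Both overlapped by 1 library. The median log2 fold change of the members was 0.07 in HT55.

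In SW948 0 of 31 members passed edgeR's test and 1 passed DESeq2, where 0% of 13674 genes passed by edgeR and 244 genes by DESeq2. The unadjusted edgeR p was under 0.05 for 5 members and for 2350 of the 13674 genes. Without replicate 4, 5 members passed, where 940 of 13386 genes did. PLK2 was at 4.76, 5.03, 4.72 and 5.14 CPM in SW948 non-LRCs and at 11.5, 12.5, 14.0 and 4.89 CPM in LRCs (1.12 ± 0.26, edgeR adjusted p = 0.133), and BAX at 43.9, 48.1, 39.1 and 41.7 against 32.1, 32.0, 33.2 and 41.2 CPM (-0.31 ± 0.10, edgeR adjusted p = 0.17). For both genes the LRC library of replicate 4 lay among the non-LRC values and the other 3 did not. The median log2 fold change of the members was 0.04 in SW948.

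**Figure D4:**
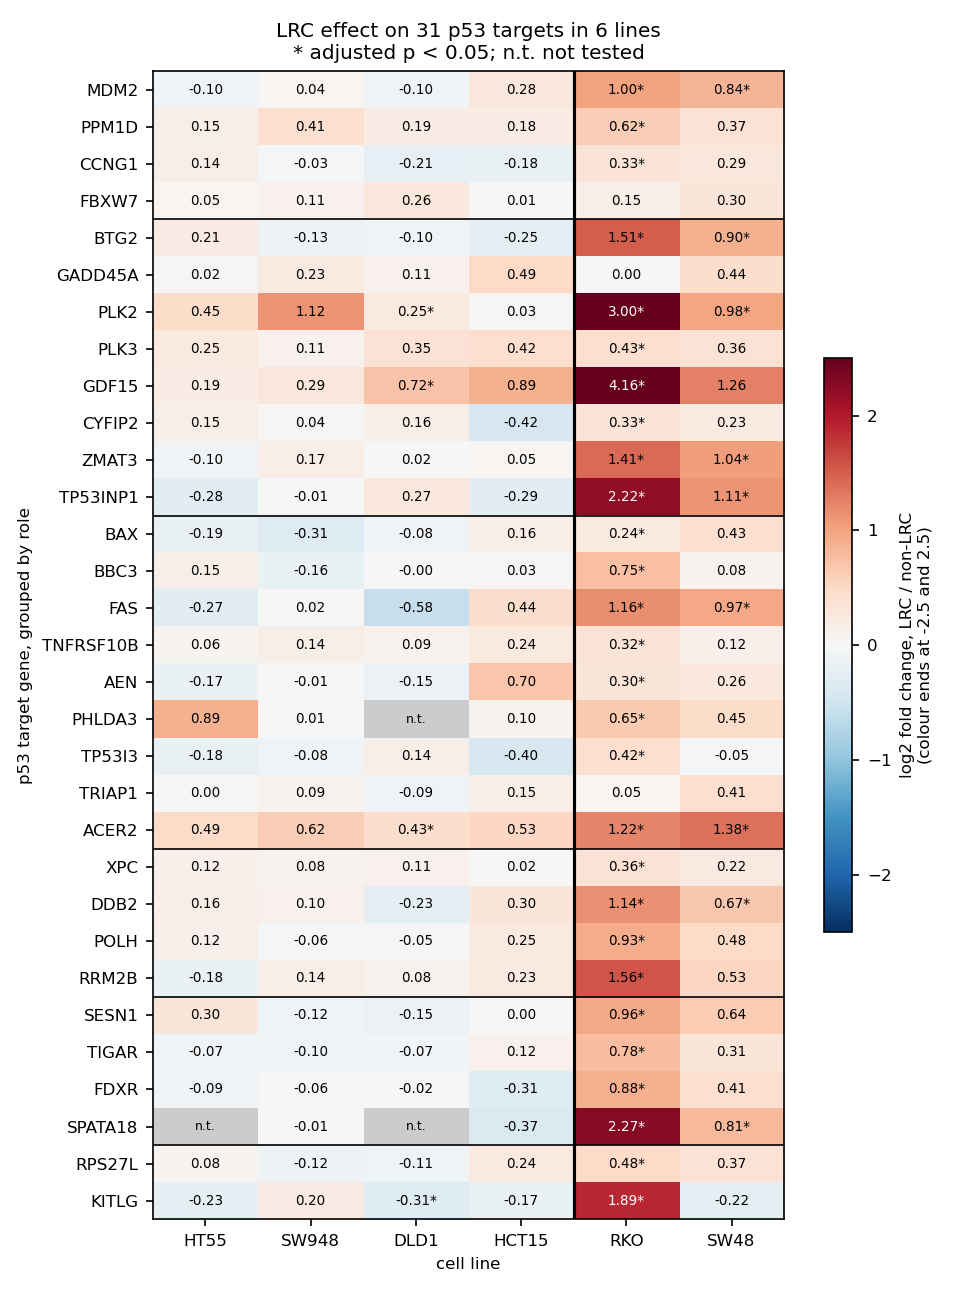
Log2 fold change of LRC against non-LRC for the 31 members (rows, by role) in each of the 6 lines (columns), with the members called marked. In these fits, which used no replicate block, RKO holds 28 called members and SW48 9, and GDF15 in RKO is the largest value (4.16).

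Over all 6 lines together, with the line as a term, 20 of the 31 members were higher in LRCs and none lower, where 22.9% of 16603 genes changed and 12.2% rose. By role these were 3 of 4 feedback genes, 6 of 8 arrest genes, 4 of 9 death genes, 4 of 4 repair genes, 2 of 4 redox genes and 1 of 2 others. The count was 6 without RKO (PPM1D, PLK2, PLK3, GDF15, PHLDA3 and ACER2), where 2378 of 16286 genes changed, and 13 without SW48, where 3485 of 16285 did. With counts summed by line, so that the line is the unit, ACER2 alone passed, where 114 of 19489 genes did. The count fell to 13 without replicate 4 of every group, where 2566 of 16310 genes changed. In the same comparison 3 of 6 proliferation markers fell (all 6 had log2 fold changes below 0, median -0.31), and of the 4 markers of other cell types tested CD68 rose (0.77 ± 0.14). Their part in the members' rise was not tested.

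ACER2 was the member with the smallest p. It ran from 1.75 to 21.9 CPM (median 3.88) in the 24 non-LRC libraries and from 2.08 to 28.3 CPM (median 9.68) in the 24 LRC libraries, ranges that overlap because HT55 and DLD1 held more of it than the rest. Its log2 fold change was 0.76 ± 0.08 (edgeR adjusted p = 8.16e-09), with values above 0 in 6 of 6 lines, from 0.43 in DLD1 to 1.38 in SW48. PPM1D, a phosphatase that restrains p53, ran from 11.7 to 29.3 CPM (median 15.7) in non-LRCs and from 12.6 to 31.2 CPM (median 20.6) in LRCs, with a log2 fold change of 0.32 ± 0.05 (edgeR adjusted p = 2.38e-05) that was above 0 in 6 of 6 lines.

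ZMAT3 ran from 11.2 to 68.2 CPM (median 32.3) in non-LRCs and from 10.2 to 175 CPM (median 33.3) in LRCs (0.46 ± 0.10, edgeR adjusted p = 0.00074). Its effect was 1.41 in RKO and 1.04 in SW48 and between -0.10 and 0.17 in the other four lines. GDF15 ran from 0.712 to 821 CPM (median 75.1) in non-LRCs and from 12.2 to 940.3 CPM (median 116) in LRCs (0.93 ± 0.21, edgeR adjusted p = 0.000788), with log2 fold changes above 0 in 6 of 6 lines. The populations overlapped for both genes.

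The members with a p53 consensus match can be set beside those without one. In RKO 14 of 15 with a match and 14 of 16 without one rose, with median log2 fold changes of 1.16 and 0.64. In SW48 8 of 15 with a match and 1 of 16 without one (TP53INP1) rose, with medians of 0.81 and 0.36. In the test of the difference between lines 11 of 15 and 9 of 16 passed, with medians of 0.84 and 0.38. No test was made of these splits.

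MDM4, an inhibitor of p53 related to MDM2, had log2 fold changes of 0.01 ± 0.14 in RKO and -0.10 ± 0.14 in SW48 that did not pass. CDKN1A, the cell cycle inhibitor p21 and the classic p53 target, rose in RKO LRCs from 192 ± 9.67 to 301 ± 29.6 CPM (0.65 ± 0.08) and in SW48 LRCs from 206 ± 36.4 to 721 ± 242.5 CPM (1.82 ± 0.23). Its log2 fold change was between 0.51 and 0.69 in the other four lines, none of which passed. The difference between RKO and SW48 and the other lines was 0.64 ± 0.21 (edgeR adjusted p = 0.0403), and since the effect in RKO lay within the range of the other four lines, it rests on SW48.

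A list of 30 further p53 targets and one of 12 p53 regulators stood beside the members. Of the further targets 19 of 28 tested rose and 1 fell in RKO, where 20.4% of all genes rose and 41.5% changed. In SW48 5 of 29 rose, where 0.72% of genes rose. In DLD1 7 of 28 rose and 3 fell (14.6% of genes changed), and in HCT15 1 of 29 rose (0.977% changed). None of 26 in HT55 or 28 in SW948 passed, where 0% of genes did. Over all lines 14 of 29 rose (12.2% of genes rose), and 9 of 29 had a larger effect in RKO and SW48 (6.15% of genes did). Besides CDKN1A, the largest log2 fold changes of further targets called within a line included those of CD82 (3.29) and TRIM22 (2.58) in RKO and ABCA12 (3.27) in SW48. Next came ATF3 in DLD1 (1.77) and TNFRSF10C in RKO (1.73). Of these, ABCA12, TRIM22 and TNFRSF10C had only 676, 1421 and 3019 reads over all libraries together, which limits their precision. The further target called in HCT15 was ATF3 (1.21). Of the regulators 4 of 10 rose and 1 fell in RKO (41.5% of genes changed), and none of 12 passed in SW48 (0.796%). In DLD1 2 of 10 fell (14.6% of genes changed). In HCT15 1 of 10 fell, TP73 (-0.58 ± 0.11, edgeR adjusted p = 0.0474), where 0.977% of genes changed. Over all lines 2 of 12 fell (22.9% of genes changed), and 3 of 12 had a larger effect in RKO and SW48 (6.15% of genes did).

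The unsorted controls labeled DLD1 tested culture time and dye, and each comparison shares libraries with others, so their values are given side by side. From day 1 to the time labeled day 5 in unlabeled cultures 9 members passed, where 25.5% of 14518 genes changed: CCNG1 and BBC3 rose, and PLK3, GDF15, BAX, AEN, TP53I3, DDB2 and POLH fell. Without the unlabeled day 1 library of replicate 4, 15 members passed, against 42.1% of genes. Without replicate 1, replicate 2 or replicate 3 no member passed by edgeR, and none of the 14238 to 14310 genes tested did either. In CFSE-stained cultures 9 members also passed, where 39.3% of genes changed: CCNG1, CYFIP2, SESN1 and SPATA18 rose, and FBXW7, GADD45A, PLK3, TNFRSF10B and POLH fell. That count was 5 without replicate 2, where 2858 of 14310 genes changed.

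PLK3, a stress-responsive kinase, was at 28.5, 29.2, 23.8 and 10.3 CPM in the unlabeled day 1 libraries and at 7.07, 12.4, 10.1 and 11.6 CPM in those of day 5 (log2 fold change -1.20 ± 0.29, edgeR adjusted p = 0.0115). In CFSE-stained cultures it was at 54.3, 58.9, 38.6 and 34.7 CPM at day 1 and at 23.7, 22.3, 16.6 and 14.7 CPM at day 5 (-1.35 ± 0.28, edgeR adjusted p = 0.0019). Every CFSE day 1 library was above every day 5 library, and in the unlabeled series only replicate 4 of day 1 was among the day 5 values. DDB2 in unlabeled cultures was at 22.1, 24.8, 20.3 and 11.0 CPM and then at 9.94, 11.3, 11.6 and 11.4 CPM (-0.86 ± 0.21, edgeR adjusted p = 0.0117), and GDF15 at 156, 158, 188 and 33.2 CPM and then at 34.6, 61.7, 38.4 and 40.7 CPM (-1.66 ± 0.45, edgeR adjusted p = 0.0174). Both overlapped through that same library. BBC3 was at 19.2, 21.3, 14.2 and 24.9 CPM and then at 27.6, 27.1, 29.1 and 31.6 CPM (0.50 ± 0.16, edgeR adjusted p = 0.0305), without overlap.

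In CFSE-stained cultures CYFIP2, a cytoplasmic partner of the FMR1 protein, was at 29.4, 30.3, 46.3 and 47.6 CPM at day 1 and at 80.6, 80.7, 88.4 and 87.4 CPM at day 5 (1.06 ± 0.14, edgeR adjusted p = 0.000129). SPATA18 was at 1.89, 1.77, 2.76 and 2.85 CPM and then at 5.38, 5.03, 8.14 and 8.54 CPM (1.47 ± 0.28, edgeR adjusted p = 0.00104). Neither overlapped between the times. The death receptor gene TNFRSF10B was at 266, 272, 209 and 216 CPM and then at 183, 196, 168 and 166 CPM (-0.51 ± 0.11, edgeR adjusted p = 0.00279), also without overlap.

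CFSE against DMSO at day 1 gave 11 members, where 21.8% of genes changed. MDM2, PPM1D, FBXW7, PLK2, PLK3 and TNFRSF10B were higher with the dye and CYFIP2, TP53INP1, TP53I3, DDB2 and SPATA18 lower. CYFIP2 differed by -0.87 ± 0.14 (edgeR adjusted p = 0.00145), from unlabeled values of 67.2, 72.2, 61.2 and 87.9 CPM. SPATA18 differed by -1.43 ± 0.28 (edgeR adjusted p = 0.00358), from 5.03, 4.08, 6.25 and 10.4 CPM, and TNFRSF10B by 0.53 ± 0.11 (edgeR adjusted p = 0.00571), from 177, 189, 167 and 154 CPM. The stained and unlabeled libraries of all 3 genes did not overlap. PLK2 was at 31.7, 31.1, 20.6 and 22.2 CPM unlabeled and at 145, 143, 50.8 and 54.6 CPM stained (1.94 ± 0.34, edgeR adjusted p = 0.00203), with replicates 1 and 2 of the stained cultures far above replicates 3 and 4. GADD45A split in the same way, at 92.6, 85.6, 17.1 and 18.2 CPM in the stained cultures, and did not pass (1.19 ± 0.42, edgeR adjusted p = 0.0529). Within replicates 1 and 2 alone 22 members passed at day 1, where 6688 of 13697 genes did, and within replicates 3 and 4 alone 4, where 677 of 13916 did. The count was 3 without replicate 1 (775 of 14254 genes) or replicate 2 (338 of 14310 genes) and 6 without replicate 3 (2184 of 14238 genes). Of 7 immediate early genes, 5 were higher with the dye at day 1, and their part was not tested.

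At day 5 4 members differed between CFSE and DMSO, where 5.13% of genes did: PLK2, FAS and AEN, an apoptosis-enhancing nuclease, were higher and BBC3 lower. BBC3 was at 13.8, 13.5, 19.6 and 18.6 CPM in the stained cultures, all below the unlabeled ones (-0.81 ± 0.16, edgeR adjusted p = 0.0169). FAS was at 27.0, 24.8, 22.9 and 19.9 CPM unlabeled and at 39.9, 45.6, 32.4 and 31.5 CPM stained (0.66 ± 0.14, edgeR adjusted p = 0.0213), AEN at 19.9, 39.8, 26.7 and 28.6 against 88.1, 85.0, 49.03 and 46.9 CPM (1.23 ± 0.31, edgeR adjusted p = 0.0323), and PLK2 at 22.3, 35.2, 21.5 and 18.6 against 77.2, 71.9, 48.1 and 42.6 CPM (1.30 ± 0.34, edgeR adjusted p = 0.0359). None of these overlapped. Without replicate 1, replicate 2 or replicate 3 no gene of any kind passed by edgeR, and without replicate 4 6 members did, where 1604 of 14236 genes did. Of 6 proliferation markers, 5 were higher with the dye at day 5 (2106 to 2423 CPM in sum against 927.1 to 1464), and their part was not tested. MDM4 fell from day 1 to day 5 in both series (-1.17 ± 0.32 unlabeled and -1.57 ± 0.32 stained, edgeR adjusted p = 0.0181 and 0.00162), while CDKN1A passed none of these comparisons.

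**Figure D5:**
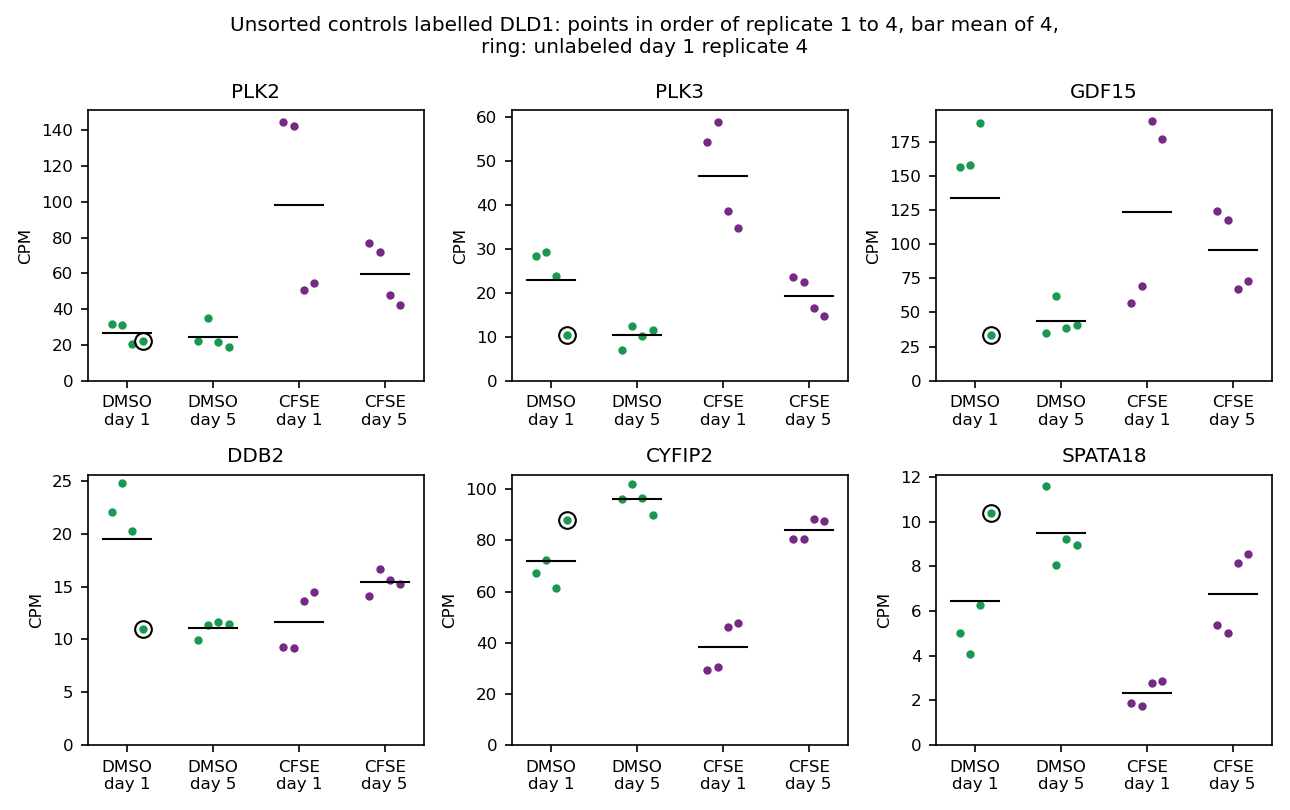
Level of PLK2, PLK3, GDF15, DDB2, CYFIP2 and SPATA18 in each of the 16 unsorted controls labeled DLD1, in CPM on linear axes, by stain and day, 4 points for each, with a ring around the unlabeled day 1 library of replicate 4. The ringed library lies among the unlabeled day 5 points for PLK3 (10.3 CPM) and DDB2 (11.0 CPM) and just below them for GDF15 (33.2 CPM).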

How the data were processed

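RNA of 64 libraries was extracted with a micro-scale column kit and sequenced as 50-bp single-end reads. The authors aligned the reads to hg19 with TopHat and counted them per gene with HTSeq, per the submitters' processing notes, and deposited raw counts, one file per library, with 4 libraries in each of 16 groups. The versions, the annotation and the strand setting are not given in the sources used here. Without strand, reads of a gene and of an overlapping partner on the opposite strand cannot be told apart. Such partners overlap 24.6% of XPC's exonic bases (XPC-AS1), 10.7% of FAS's and 9.45% of MDM2's. For PHLDA3 18.4% are overlapped by a gene on the same strand, whose reads strand would not separate. RPS27L has a near-identical paralog, RPS27, and reads may be split between them. Rows that name no gene (no feature, 5.19 to 14.8% of the reads of a library in these counts) were left out.

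Gene symbols came from the reference annotation. A gene entered a fit if 4 or more of its libraries held 10 or more counts, and edgeR 4.0.16 gave the main test (quasi-likelihood, TMM normalization, R 4.3.3), two-sided, with Benjamini-Hochberg adjustment over all genes tested and a threshold of 0.05. The LRC effect was fitted within each line, across the 6 lines with line as a term, and as an interaction. Levels of RKO and SW48 against the other lines were fitted on counts summed by line (10 counts in at least 2 of the 6 sums), and the 16 controls in one fit. Alternatives were DESeq2 1.42.0, limma 3.58.1, other normalizations and filters, a replicate block, and leaving out replicates or lines.

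All 31 members could be named. Values in every library are given for up to 4 called members with the smallest adjusted p per comparison (2 where none was called), and CDKN1A and MDM4 throughout (1 further gene is not reported here). GADD45A in the stained controls, GDF15 in SW48, and BTG2 and PLK2 in the account of line order were added after their values were seen. The members, lists and tests were chosen with earlier results of these data known. The main tests used no pairing of libraries, and the replicate number was a block only in alternative fits. Same-numbered deviations of every pair correlated above 0.1 in HT55, SW48, DLD1 and HCT15 (0.185 to 0.609). They also did between the times of the stained controls (0.182 to 0.306), and not in RKO (-0.0913 to 0.0091), SW948 or the other comparisons. Where they did, the p-values of the main tests ignore a pairing that the libraries show. The fits were tested on simulated counts with known changes.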

Additional observations from a re-analysis of the deposited data

Results flagged for a closer look

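In 16 of 490 groups of 4 libraries (3.27%, where chance alone gives about 1 in 20) the highest or lowest library stood farther from its neighbour than Dixon's 95% limit for its group's range allows. In RKO these were FAS at 16.27 CPM in non-LRC replicate 4 and, in LRCs, PHLDA3 at 46.63 CPM (replicate 1), TRIAP1 at 22.97 CPM (replicate 2) and RPS27L at 59.74 CPM (replicate 3). In SW48 they were MDM2 at 126.9 CPM in LRC replicate 1 and BBC3 at 14.27 CPM in non-LRC replicate 2. In SW948 LRCs they were BAX at 41.16 CPM and SPATA18 at 17.67 CPM (both replicate 4), TNFRSF10B at 240.8 CPM (replicate 3) and POLH at 21.72 CPM (replicate 1). In HT55 non-LRCs FAS at 3.442 CPM and SESN1 at 24.93 CPM stood apart, both in replicate 2. PPM1D at 18.54 CPM in HCT15 LRC replicate 4 and TP53INP1 at 19.82 CPM in DLD1 LRC replicate 1 also did, as did TNFRSF10B at 149.9 CPM (replicate 2) and DDB2 at 9.94 CPM (replicate 1) in the unlabeled day 5 controls.

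The LRC effect differed between RKO and SW48 and the other 4 lines by edgeR's interaction test for 20 members, where 10.7% of genes differed and 6.15% had a larger effect. Libraries were the units of that test, and with lines as units 1 member (ZMAT3) passed, where 4 of 16603 genes did. The differences in log2 fold change were 2.21 for GDF15, 1.76 for TP53INP1, 1.55 for PLK2, 1.29 for BTG2, 1.21 for ZMAT3, 1.18 for FAS, 0.9997 for RRM2B, 0.98 for KITLG, 0.91 for MDM2 and 0.84 for DDB2. They were 0.81 for SESN1, 0.80 for ACER2, 0.79 for FDXR, 0.66 for POLH, 0.59 for TIGAR, 0.46 for BAX, 0.42 for RPS27L, 0.40 for CCNG1, 0.32 for CYFIP2 and 0.23 for XPC.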

How the results depend on the processing

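The 28 members called in RKO were between 23 and 28 under every alternative run, where 3387 to 5472 genes passed. Across the lines, the count of 20 was 1 with counts summed by line, 6 without RKO and 13 without SW48. It was 13 to 18 with a replicate left out (2243 to 2945 genes). In HT55 it was 0 to 4 with a replicate left out (0 to 808 genes). In SW948 it was 1 by DESeq2 (244 of 13674 genes), 4 with no filter (973 of 27040) and 1 with the replicate block (501 of 13674). It was 2 in a fit of all 48 samples (389 of 16603) and 0 to 5 with a replicate left out (0 to 940 genes). In SW48 it was 14 by DESeq2 (361 of 13195 genes) and 22 with the replicate block (1279 of 13196). It was 14 in the fit of all 48 samples (486 of 16603) and 0 to 17 with a replicate left out (0 to 497 genes). In DLD1 it was 10 with the replicate block (4591 of 13592 genes) and 1 in the fit of all 48 samples (646 of 16603). It was 7 within replicates 1 and 2 (1537 of 12978) and 8 within replicates 3 and 4 (3000 of 12857). With a replicate left out it was 1 to 3 (581 to 1515 genes). In HCT15 it was 12 with the block (2987 of 14017 genes) and 2 in the fit of all 48 samples (697 of 16603). It was 6 within replicates 1 and 2 (1305 of 13161) and 8 within replicates 3 and 4 (789 of 13337). With any replicate left out it was 0 (0 to 27 genes). The 20 members with a larger effect in RKO and SW48 became 1 with line effects as units (4 of 16603 genes). With a replicate left out they became 16 to 20 (542 to 1753 genes), and the 21 that differed among lines 14 to 21 (522 to 2850 genes). Levels of RKO and SW48 against the other lines gave 2 (non-LRC) and 5 (LRC) by DESeq2, where 1345 and 1360 genes passed. With libraries as units they gave 29 and 27, where 12015 and 12201 genes passed.

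In the controls, the unlabeled time comparison gave 15 without the day 1 library of replicate 4 (6077 of 14450 genes). It gave 17 within replicates 1 and 2 (7915 of 13697) and 0 within replicates 3 and 4 (0 of 13916). With a replicate left out it gave 0 to 15 (0 to 6378 genes). The stained one gave 15 within replicates 1 and 2 (7651 of 13697 genes) and 5 within replicates 3 and 4 (1908 of 13916). With a replicate left out it gave 5 to 11 (2858 to 5692 genes). CFSE against DMSO at day 1 gave 22 within replicates 1 and 2 (6688 of 13697 genes) and 4 within replicates 3 and 4 (677 of 13916). With a replicate left out it gave 3 to 11 (338 to 3384 genes). At day 5 these were 15 (4273 of 13697), 0 (2 of 13916) and 0 to 6 (0 to 1604 genes), and no filter gave 7 (1042 of 30600). Within replicates 3 and 4, CCNG1 in the unlabeled time comparison turned to -0.0853 and GADD45A in the stained one to 0.16. The cause of these changes was not tested. The fits within replicate pairs, the line effects as units and the libraries left out by name were chosen after seeing the data. Beyond the counts given, the block changed no count of members called by over 1.5 times. Counts of all genes called changed more: from 1781 to 3250 in the interaction test and from 2380 to 5584 for an effect that differed among lines. For CFSE against DMSO at day 5 they went from 745 to 1511. Of 1604 recomputed values of the 124 gene results, 1313 kept direction and side of the threshold, 266 lost the call, 23 gained it and 2 reversed.

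PLK2 and GDF15 in RKO non-LRCs and SPATA18 in HT55 and DLD1 rest on few reads, which limits their precision. With 2 lines against 4, differences between lines cannot be generalized from these libraries.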
